A study of Mus musculus with 10 samples.

Results

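The mitochondrial genome of the mouse carries 37 annotated genes, and the counts deposited for each of them were followed in mouse hippocampal neurons grown in primary culture and given an inhibitor of microRNA-409-5p or of microRNA-501-3p. All genes whose symbol starts with mt- were taken, which gave 37 of the 48709 genes in the count tables. They comprise 13 protein-coding genes, 22 tRNA genes and 2 rRNA genes. Of these 37 genes, 28 are annotated on the plus strand of the reference, called here the heavy-strand genes, and 9 on the minus strand, called here the light-strand genes (mt-Nd6 and 8 tRNA genes).

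Lipid nanoparticles were given on day 10 in vitro and RNA was collected 48 h later. The cargo was anti-miR-409-5p in 4 libraries, anti-miR-501-3p in 4 others and scramble RNA in the 2 control libraries, so every group had received nanoparticles. Libraries were prepared from polyadenylated RNA with a kit that does not mark strand, and sequenced as 50-base single-end reads. The labels name no genotype, strain or sex. They do not state whether replicates were grown as independent cultures, so p-values measure only the spread between these libraries. Both comparisons with control share the same 2 control libraries.

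As background, the mitochondrial genome is transcribed from both strands as long precursor RNAs in which tRNAs lie between most of the rRNAs and mRNAs. RNase P cuts at the 5' end of each tRNA and RNase Z at its 3' end, which frees the RNAs on either side. Most of the freed mRNAs receive a short poly(A) tail, while a tRNA ends in CCA and carries no such tail. The mRNAs encode subunits of complexes I, III, IV and V of the respiratory chain, and the tRNAs and rRNAs serve the mitochondrial ribosome that translates them. Neurons draw much of the ATP for synaptic transmission and ion pumping from this chain. Because a library of polyadenylated RNA does not sample mature tRNA, the counts on tRNA genes below are not levels of mature tRNA, and the RNA molecules that they came from were not tested.

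The tRNA genes that carry the findings are shown first, since they are hardly longer than a read and differ widely in base composition. The first group lies side by side on the light strand, on mm10 chromosome M, and comprises the genes for the alanine tRNA (mt-Ta, chrM:5018-5086), the asparagine tRNA (mt-Tn, chrM:5089-5159) and the cysteine tRNA (mt-Tc, chrM:5192-5257). The second group is on the heavy strand and holds the isoleucine tRNA (mt-Ti, chrM:3706-3774), a serine tRNA (mt-Ts2, chrM:11613-11671) and a leucine tRNA (mt-Tl2, chrM:11671-11741). The last 2 genes shown are the other leucine tRNA (mt-Tl1, chrM:2676-2750), which changed least among the tRNA genes that were called, and the proline tRNA (mt-Tp, chrM:15356-15422), which has the most counts. Sequences are from GENCODE M21, 5' to 3' in the sense of the gene, with the anticodon in capitals.
mt-Ta: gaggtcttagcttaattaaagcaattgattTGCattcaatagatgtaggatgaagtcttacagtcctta
mt-Tn: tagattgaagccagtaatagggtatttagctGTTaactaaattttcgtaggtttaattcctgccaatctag
mt-Tc: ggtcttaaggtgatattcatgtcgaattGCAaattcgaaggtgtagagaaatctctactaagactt
mt-Ti: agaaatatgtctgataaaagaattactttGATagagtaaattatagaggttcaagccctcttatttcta
mt-Ts2: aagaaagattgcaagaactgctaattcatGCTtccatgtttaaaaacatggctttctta
mt-Tl2: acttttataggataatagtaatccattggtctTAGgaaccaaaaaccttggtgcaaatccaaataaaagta
mt-Tl1: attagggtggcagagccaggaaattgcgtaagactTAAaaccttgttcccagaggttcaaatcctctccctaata
mt-Tp: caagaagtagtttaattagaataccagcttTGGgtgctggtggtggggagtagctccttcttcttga
The isoleucine tRNA gene has a GC content of 27.5%, mt-Tl2 of 31%, mt-Ts2 of 32.2%, mt-Ta of 33.3%, mt-Tn of 33.8% and mt-Tc of 36.4%. The genes mt-Tl1 (44.0%) and mt-Tp (44.8%) lie above them.

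Total counts were 22254788 to 32096808 per library. Neuronal markers summed to 6499 to 6683 CPM (counts per 1000000 counts, with library sizes scaled by TMM) in anti-miR-409-5p libraries, 6340 to 6666 in anti-miR-501-3p libraries and 6340 to 6372 in control, with 4 of 10 markers called higher in each comparison and 4 and 5 called lower. Astrocyte markers summed to 3939 to 4161 CPM, 3816 to 3994 CPM and 3469 to 3620 CPM in the same groups, with 3 and 2 of 5 markers called higher and 1 called lower in each comparison. Oligodendrocyte-lineage markers reached 511, 489 and 622 CPM at most, endothelial, mural and fibroblast markers 212, 252 and 264 CPM, proliferating-progenitor markers 105, 89.5 and 96.6 CPM. Microglia and macrophage markers summed to at most 17.9 CPM in any library. No listed marker was at 0 in all libraries. As a scale for the marker calls, 15.6% of all tested genes were called higher in the anti-miR-409-5p comparison, with 12.2% called lower. The matching shares for anti-miR-501-3p were 17.6% and 15.4%. In these bulk cultures, fewer cells of a type and less RNA per cell cannot be told apart, and the part of astrocyte RNA in the results below was not tested.

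The count tables hold the mitochondrial genome only in part. Of the 37 genes, 21 passed the filter on low counts and were tested, 2 had counts below it and 14 had 0 counts in all 10 libraries. The limit that a count of 0 allows is 3 counts, which is 0.0951 to 0.136 CPM depending on the library. Both rRNA genes were tested. Of the 13 protein-coding genes, 7 were tested (mt-Nd1, mt-Nd2, mt-Nd4, mt-Nd5 and mt-Nd6 of complex I, mt-Cytb of complex III and mt-Co1 of complex IV). The other 6, mt-Co2 and mt-Co3 of complex IV, mt-Atp6 and mt-Atp8 of complex V and mt-Nd3 and mt-Nd4l of complex I, had 0 counts.

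Of the 22 tRNA genes, 12 were tested. The tRNA genes mt-Tw, mt-Ty, mt-Ts1, mt-Td, mt-Tk, mt-Tg, mt-Tr and mt-Th had 0 counts. The phenylalanine tRNA gene mt-Tf had 64 counts over the 10 libraries and the valine tRNA gene mt-Tv had 35, both too few for the test. In anti-miR-409-5p libraries mt-Tf had 5, 6, 5 and 5 counts, in anti-miR-501-3p libraries 6, 15, 7 and 10, and in control libraries 2 and 3. The gene mt-Tv had 1, 4, 8 and 3 counts in anti-miR-409-5p libraries, 3, 5, 5 and 1 in anti-miR-501-3p libraries and 2 and 3 in control, so its groups overlapped.

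Most of the protein-coding genes at 0 have near-complete copies among nuclear pseudogenes. Each gene was cut into all its 50-base windows, the length of a read, and the windows were searched in the nuclear transcripts of GENCODE M21, both strands included. For mt-Co2, 100% of the windows were found in nuclear pseudogenes, for mt-Co3 99.9%, for mt-Atp6 99.5%, for mt-Nd4l 98.8% and for mt-Nd3 98.0%. None of the windows of mt-Atp8 matched an annotated nuclear transcript, but the gene lies between mt-Co2 and mt-Atp6. Of the tested genes, mt-Nd4 shared 62.2% of its windows, mt-Co1 51.1%, mt-Nd2 8.19%, mt-Nd5 7.61% and mt-Rnr2 1.04%. The genes mt-Nd1, mt-Nd6, mt-Cytb and mt-Rnr1 shared none.

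Copies of genes from mt-Co1 to mt-Nd4 stand together on chromosome 1, where 7 pseudogenes (Gm28439, Gm10222, Gm28438, Gm28437, Gm10925, Gm28661 and Gm29216) fill chr1:24611535-24616197 of mm10. Other copies lie on chromosomes 2, 4, 6, 11 and 13, among them those that match mt-Nd2, mt-Nd5 and mt-Rnr2. No tRNA gene shared a window with an annotated transcript, yet 6 of the 8 tRNA genes at 0 (mt-Ts1, mt-Td, mt-Tk, mt-Tg, mt-Tr and mt-Th) lie between mt-Co1 and mt-Ts2. The copies on chromosome 1 match genes from mt-Co1 to mt-Nd4, and mt-Th lies beyond the end of mt-Nd4. The remaining pair, mt-Tw and mt-Ty, flanks the mt-Ta, mt-Tn and mt-Tc group, which had counts. How reads that map to several places were treated is not given in the sources used here, so a count of 0 does not show that the RNA is absent, and the levels of mt-Co1 and mt-Nd4 may be understated.

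A single copy on chromosome 1 had more than a few counts. Gm28438, which shares 293 windows with mt-Nd3, had 129, 214, 142 and 148 counts in anti-miR-409-5p libraries and 180, 205, 145 and 170 in anti-miR-501-3p libraries, against 48 and 77 in control libraries. The other 6 copies in that stretch had between 0 and 13 counts in any library. Gm28438 rose by a log2 fold change of 1.40 ± 0.20 (SE) under anti-miR-409-5p (edgeR quasi-likelihood test, adjusted p = 1.8e-04) and by 1.51 ± 0.19 under anti-miR-501-3p (adjusted p = 5.4e-05). Reads of mt-Nd3 and of its copy cannot be told apart by most of their windows. With the trend on GC content and length removed, the values were 0.67 and 0.68 and neither was called (adjusted p = 0.13 and 0.096). The copy Gm13340 on chromosome 2, which shares windows with mt-Co1, had 83 to 153 counts in anti-miR-409-5p libraries and 114 to 139 in anti-miR-501-3p libraries. In control it had 94 and 107, and its log2 fold changes were 0.36 ± 0.12 and 0.34 ± 0.12 (adjusted p = 0.036 and 0.043). The other tested copies, Gm13341, Gm11407 and Gm4076, were not called in either comparison. Their adjusted p-values were 0.44, 0.20 and 0.79 under anti-miR-409-5p and 0.66, 0.11 and 0.41 under anti-miR-501-3p (edgeR). Neither call of Gm13340 held without control replicate 1 (adjusted p = 0.22 and 0.24), without control replicate 2 (0.089 and 0.094) or with the GC and length trend removed (log2 fold changes 0.088 and -0.0010).

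**Figure D1:**
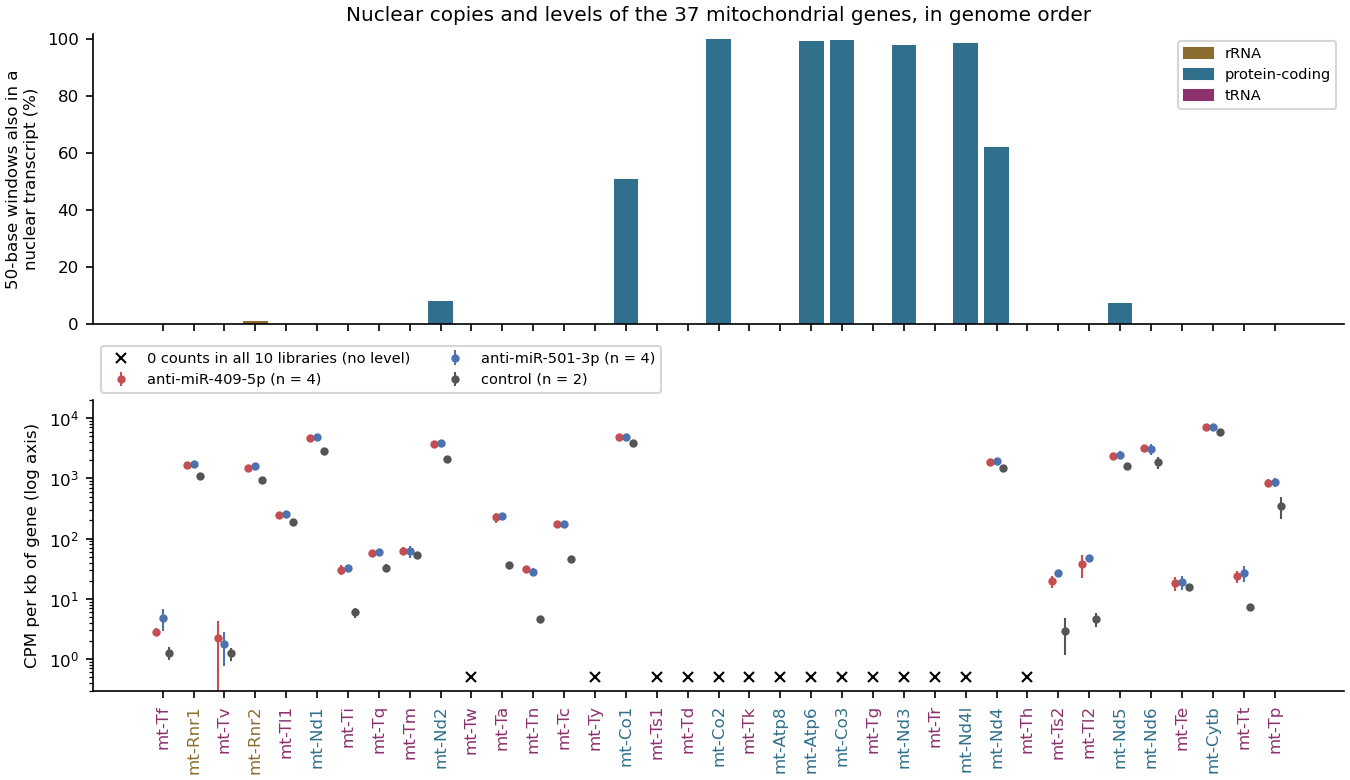
The upper panel gives the percentage of each gene's 50-base windows that also occur in an annotated nuclear transcript, for the 37 mitochondrial genes in genome order. The lower panel gives the mean level in CPM per kb of gene (log axis, bars are SD) in anti-miR-409-5p (n = 4), anti-miR-501-3p (n = 4) and control (n = 2) libraries, with crosses, placed at an arbitrary height, for the 14 genes with 0 counts.

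Among the genes with counts, protein-coding genes took most of the mitochondrial reads. They held 3.03%, 3.23%, 3.24% and 3.38% of all counts in anti-miR-409-5p libraries and 2.91%, 3.26%, 3.38% and 3.53% in anti-miR-501-3p libraries, against 2.34% and 2.499% in control libraries. The rRNA genes held 0.357%, 0.393%, 0.417% and 0.412% in anti-miR-409-5p libraries and 0.406%, 0.411%, 0.415% and 0.408% in anti-miR-501-3p libraries, against 0.244% and 0.270% in control. The tRNA genes held 0.0102%, 0.0127%, 0.0134% and 0.0122% in anti-miR-409-5p libraries and 0.0108%, 0.0132%, 0.0131% and 0.0131% in anti-miR-501-3p libraries, against 0.00472% and 0.00609% in control. In each class all 8 anti-miR libraries lay above both control libraries. Counting error was small beside these gaps: the exact 95% Clopper-Pearson interval of the lowest tRNA share among anti-miR libraries was 0.00986% to 0.0106%, and that of the higher control 0.00581% to 0.00637%, both covering counting error only.

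The classes did not move in proportion. The tRNA share averaged 0.0121% ± 0.00135 in the 4 anti-miR-409-5p libraries and 0.0125% ± 0.00116 in the 4 anti-miR-501-3p libraries, against 0.00540% ± 0.000963 in the 2 control libraries (SD). On a log2 scale, the ratio of tRNA to mRNA counts was -8.06 ± 0.13 under anti-miR-409-5p and -8.03 ± 0.06 under anti-miR-501-3p, against -8.82 ± 0.19 in control, differences of 0.76 and 0.79. The ratio of rRNA to mRNA counts was -3.03 ± 0.05 and -2.99 ± 0.11 under the anti-miRs, against -3.23 ± 0.04 in control, differences of 0.21 and 0.24. In every anti-miR library both ratios were above both control libraries.

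The ratio of light-strand to heavy-strand counts did not separate the groups in the same way. It was -4.35, -4.31, -4.41 and -4.26 (log2) in anti-miR-409-5p libraries and -4.70, -4.30, -4.24 and -4.43 in anti-miR-501-3p libraries, against -4.87 and -4.48 in control. Replicate 1 of anti-miR-501-3p lay between the controls, so that group overlapped control. The mean difference for anti-miR-409-5p was 0.34, and without control replicate 1 it was 0.15. Since strand was not marked, a strand here is that of the annotated gene and not of the RNA read.

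**Figure D2:**
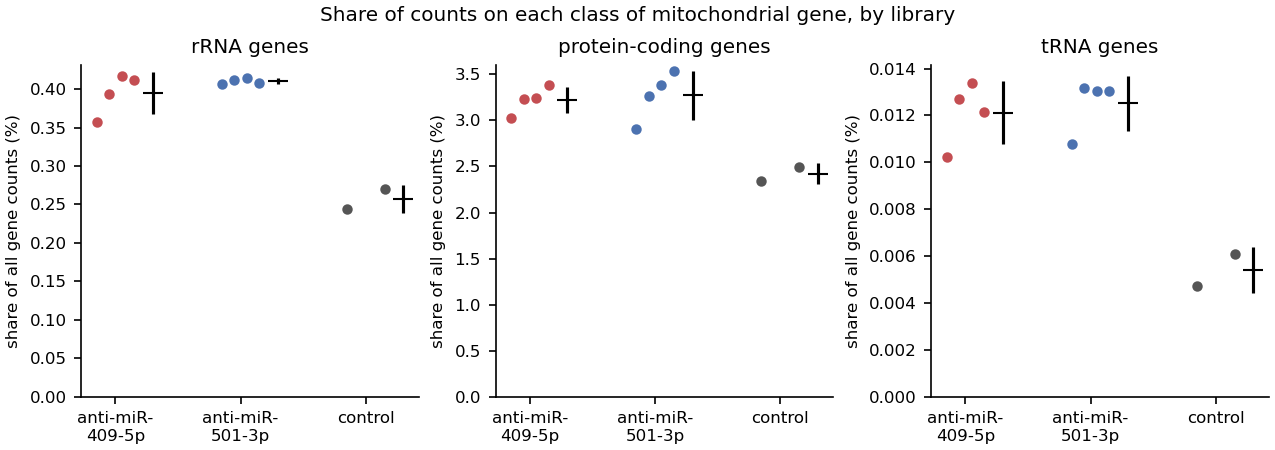
Each point is the share of all gene counts (%) that fell on mitochondrial rRNA, protein-coding or tRNA genes in 1 library, with the group mean and SD beside the points, and each axis starts at 0. All 8 anti-miR libraries lie above both controls in each class, and the tRNA panel shows the widest relative gap.

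Most tested mitochondrial genes rose under each anti-miR. Under anti-miR-409-5p, 18 of the 21 tested genes were called higher and 0 lower at an adjusted p of 0.05, where 15.6% of all tested genes were called higher and 27.8% called in either direction. Under anti-miR-501-3p, 19 of 21 were called higher and 0 lower, where 17.6% of all tested genes were called higher and 33.0% in either direction. Every anti-miR library lay above both controls for 19 of 21 genes in each comparison, against 24.1% and 24.3% of all tested genes, and the exceptions in both were mt-Tm and mt-Te. The serine tRNA gene mt-Ts2 passed the filter on low counts through the anti-miR libraries alone, and mt-Tn and mt-Tl2 had only 1 control library at the filter's level, so these 3 were tested because of their counts under the anti-miRs. Directions were the same under all 4 other scalings of the libraries.

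The rRNA genes moved together. The 12S rRNA gene mt-Rnr1, the RNA of the small mitochondrial ribosomal subunit, had 1424, 1555, 1680 and 1716 CPM in anti-miR-409-5p libraries and 1596, 1659, 1640 and 1680 CPM in anti-miR-501-3p libraries, against 964 and 1090 CPM in control libraries. The 16S rRNA gene mt-Rnr2, the RNA of the large subunit, had 2132, 2379, 2528 and 2478 CPM in anti-miR-409-5p libraries and 2463, 2507, 2554 and 2453 CPM in anti-miR-501-3p libraries, against 1407 and 1557 CPM in control libraries. Neither gene's anti-miR libraries overlapped its controls. The log2 fold changes of mt-Rnr1 were 0.63 ± 0.07 under anti-miR-409-5p and 0.68 ± 0.07 under anti-miR-501-3p (edgeR, adjusted p = 1.2e-04 and 4.8e-05). Those of mt-Rnr2 were 0.68 ± 0.06 and 0.75 ± 0.06 (adjusted p = 2.0e-05 and 5.4e-06). The 12S gene made up 40.1% ± 0.587 and 39.7% ± 0.684 of rRNA counts under the anti-miRs and 40.9% ± 0.367 in control, and the anti-miR-409-5p libraries overlapped control.

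Among the protein-coding genes, the complex I genes mt-Nd1 and mt-Nd2, which follow the rRNA genes on the heavy strand, rose more than mt-Co1 and mt-Cytb. The gene mt-Nd1 had 4221, 4431, 4783 and 4706 CPM in anti-miR-409-5p libraries and 4359, 4394, 4578 and 5011 CPM in anti-miR-501-3p libraries, against 2675 and 2800 CPM in control libraries. The gene mt-Nd2 had 3208, 3697, 4101 and 4214 CPM in anti-miR-409-5p libraries and 3431, 3964, 4215 and 4514 CPM in anti-miR-501-3p libraries, against 2064 and 2284 CPM in control libraries. The groups of both genes did not overlap control. The log2 fold changes were 0.73 ± 0.06 and 0.74 ± 0.06 for mt-Nd1 (edgeR, adjusted p = 2.2e-05 and 8.8e-06), which was called higher under every alternative setting. For mt-Nd2 they were 0.81 ± 0.14 and 0.89 ± 0.14 (adjusted p = 0.0058 and 0.0030). Under anti-miR-409-5p mt-Nd2 was not called without control replicate 1 or with 1 surrogate variable (0.58, adjusted p = 0.070).

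The genes with the most counts changed less. Cytochrome b (mt-Cytb), the core subunit of complex III, had 7808, 8091, 8084 and 8387 CPM in anti-miR-409-5p libraries and 7302, 8030, 8396 and 8854 CPM in anti-miR-501-3p libraries, against 6573 and 6896 CPM in control libraries. The complex IV gene mt-Co1, which encodes the catalytic subunit, had 7271, 7558, 7363 and 7474 CPM in anti-miR-409-5p libraries and 7124, 7579, 7429 and 7804 CPM in anti-miR-501-3p libraries, against 5933 and 6100 CPM in control libraries. Both genes were higher in every anti-miR library than in either control. The fold changes were 1.20 and 1.21 for mt-Cytb (edgeR, adjusted p = 0.0080 and 0.0052) and 1.23 and 1.24 for mt-Co1 (adjusted p = 2.5e-05 and 8.3e-06). The call of mt-Cytb was lost without control replicate 1 in both comparisons.

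The complex I genes farther along the genome lay between these pairs. The log2 fold changes of mt-Nd4 were 0.34 ± 0.11 and 0.40 ± 0.11 (edgeR, adjusted p = 0.048 and 0.021), with 2384 to 2756 CPM under anti-miR-409-5p and 2268 to 2944 CPM under anti-miR-501-3p, against 1966 and 2133 CPM in control. For mt-Nd5 the log2 fold change was 0.57 ± 0.18 under anti-miR-409-5p, which missed the threshold (edgeR, adjusted p = 0.053). It was called by DESeq2 (adjusted p = 0.0047), with at least 50 counts in every library (edgeR, 0.035) and in the fit of the 2 groups alone (0.046). A replicate block (0.029) and leaving out replicate 1 of either anti-miR (0.043 and 0.014) also gave a call. It was not called under the other scalings, with no filter on low counts (0.097) or with 1 surrogate variable (0.42). Nor was it with the trend on GC content and length (0.66) or on GC content alone (0.80) removed. Under anti-miR-501-3p the log2 fold change of mt-Nd5 was 0.61 ± 0.18 (adjusted p = 0.035). Its levels were 3752 to 5021 CPM and 3426 to 4962 CPM under the anti-miRs, against 2707 and 3136 CPM in control, so neither group overlapped control.

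The light-strand gene mt-Nd6 encodes another complex I subunit. It had 1506, 1654, 1564 and 1826 CPM in anti-miR-409-5p libraries and 1151, 1710, 1832 and 1681 CPM in anti-miR-501-3p libraries, against 803 and 1128 CPM in control libraries. Replicate 1 of anti-miR-501-3p was close to the higher control. The log2 fold changes were 0.76 ± 0.22 and 0.72 ± 0.22 (edgeR, adjusted p = 0.038 and 0.039). The calls of these 3 genes were fragile. Under anti-miR-409-5p those of mt-Nd4 and mt-Nd6 each held under 12 of 23 alternative settings, and under anti-miR-501-3p those of mt-Nd4, mt-Nd5 and mt-Nd6 held under 15, 10 and 10 of 23. All were lost without control replicate 1, with no filter on low counts and with 1 surrogate variable. Those of mt-Nd4 and mt-Nd5 were also lost without control replicate 2. Under anti-miR-409-5p those of mt-Nd4 and mt-Nd6 were lost without any one of its replicates 2, 3 and 4, and under anti-miR-501-3p all 3 were lost in the fit of the 2 groups alone.

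The mix of mitochondrial mRNA counts differed accordingly. Of the counts on protein-coding genes, mt-Cytb took 24.4% to 25.9% in anti-miR-409-5p libraries and 24.3% to 25.1% in anti-miR-501-3p libraries, against 28.9% and 28.2% in control libraries. The share of mt-Nd1 was 14.0% ± 0.434 and 13.9% ± 0.784 under the anti-miRs, against 11.6% ± 0.235 in control. The share of mt-Nd2 was 11.7% ± 0.856 and 12.2% ± 0.361 under the anti-miRs, against 9.21% ± 0.173 in control. For these 3 genes no anti-miR library overlapped the controls, while for mt-Co1 the shares were 22.9% ± 1.03 and 22.7% ± 1.30 under the anti-miRs, against 25.5% ± 0.840 in control, and all libraries of anti-miR treatment lay below both controls.

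Per length of gene, in CPM per kb, the level of mt-Cytb as counted was the highest in all groups (7074 ± 206 under anti-miR-409-5p, 7120 ± 573 under anti-miR-501-3p and 5887 ± 200 in control). These levels divide by the whole gene, while mt-Co1 and mt-Nd4 share 51.1% and 62.2% of their windows with nuclear copies. The levels of mt-Co1 and mt-Nd4 may be understated, so the order between them and the other genes is one of counts alone. In control, mt-Co1 (3894 ± 76.6) stood above mt-Nd1 (2861 ± 92.5), and mt-Nd1 above mt-Nd2 (2094 ± 149). Under anti-miR-409-5p, mt-Co1 (4800 ± 81.5) and mt-Nd1 (4739 ± 269) did not differ beyond their spread, nor did they under anti-miR-501-3p (4844 ± 185 and 4791 ± 313). In control the neighbours mt-Nd6 (1860 ± 443), mt-Nd5 (1602 ± 166) and mt-Nd4 (1487 ± 85.4) did not differ beyond their spread either. The rRNA genes were lowest of the 9 long genes in every group, with 1669 ± 139, 1721 ± 37.5 and 1076 ± 93.1 CPM per kb for mt-Rnr1 in the same order of groups. Because the libraries were of polyadenylated RNA, this order between classes is one of counts. The amounts of rRNA and mRNA in the cells were not tested.

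The tRNA genes showed the widest range of change, with called genes 1.31-fold to 8.08-fold higher under anti-miR-409-5p and 1.34-fold to 10.3-fold higher under anti-miR-501-3p. Of the 12 tested, 10 were called higher in each comparison, and the median log2 fold change was 1.84 and 1.92, beside 0.57 and 0.61 for the protein-coding genes, 0.66 and 0.71 for the rRNA genes, and -0.01 for all tested genes in both comparisons. These counts and medians include mt-Ts2, mt-Tn and mt-Tl2, which were tested because of their counts under the anti-miRs. The upper ends of the fold range are those of mt-Tl2. Where at least 50 counts were asked of every library, 6 tRNA genes were tested and 5 were called higher in each comparison, with medians of 1.04 and 1.09. In counts these genes are small: per kb, mt-Tp reached 838 ± 130 CPM under anti-miR-409-5p, 862 ± 147 under anti-miR-501-3p and 354 ± 142 in control, and the other tRNA genes stood lower. In control that order changed when levels were taken per place where a read can start, as given below.

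The 3 adjacent light-strand genes rose together. The alanine tRNA gene mt-Ta had 11.1, 17.0, 16.7 and 17.5 CPM in anti-miR-409-5p libraries and 14.6, 17.3, 14.9 and 18.7 CPM in anti-miR-501-3p libraries, against 2.38 and 2.64 CPM in control libraries. The cysteine tRNA gene mt-Tc had 11.2, 13.1, 10.9 and 11.3 CPM in anti-miR-409-5p libraries and 12.9, 12.2, 10.1 and 11.2 CPM in anti-miR-501-3p libraries, against 3.02 and 3.01 CPM in control libraries. The asparagine tRNA gene mt-Tn had 66, 70, 46 and 62 counts in anti-miR-409-5p libraries and 58, 45, 57 and 67 counts in anti-miR-501-3p libraries, against 10 and 9 counts in control libraries. For all 3 genes every anti-miR library lay above both controls.

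The log2 fold changes of mt-Ta were 2.63 ± 0.23 under anti-miR-409-5p and 2.70 ± 0.23 under anti-miR-501-3p (edgeR, adjusted p = 4.9e-05 and 2.1e-05). Those of mt-Tn were 2.72 ± 0.26 and 2.59 ± 0.27 (adjusted p = 9.2e-06 and 5.8e-06), and those of mt-Tc 1.95 ± 0.12 and 1.94 ± 0.12 (adjusted p = 7.2e-08 and 7.4e-08). The gene mt-Ta was called higher under all 23 alternative settings in both comparisons, as was mt-Tc under anti-miR-501-3p. The gene mt-Tn was called higher under the 22 that tested it, and was not tested where at least 50 counts were asked of every library. The glutamine tRNA gene mt-Tq, also on the light strand, rose less, with 3.74 to 4.60 CPM and 3.86 to 4.82 CPM under the anti-miRs, against 2.06 and 2.57 CPM in control, and log2 fold changes of 0.82 ± 0.15 and 0.89 ± 0.15 (adjusted p = 9.7e-04 and 3.1e-04).

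On the heavy strand, the isoleucine, serine, leucine and threonine tRNA genes rose from very low counts. The gene mt-Ti had 41, 74, 52 and 70 counts in anti-miR-409-5p libraries and 58, 73, 56 and 65 in anti-miR-501-3p libraries, against 10 and 14 in control. The gene mt-Tl2 had 36, 126, 62 and 77 counts in anti-miR-409-5p libraries and 101, 115, 75 and 98 in anti-miR-501-3p libraries, against 11 and 8 in control. The gene mt-Ts2 had 25, 30, 30 and 44 counts in anti-miR-409-5p libraries and 49, 42, 41 and 47 in anti-miR-501-3p libraries, against 7 and 3 in control. None of the 3 overlapped control, but their fold changes rest on 24, 19 and 10 counts in both control libraries together.

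For mt-Ti the log2 fold changes were 2.34 ± 0.26 and 2.41 ± 0.26 (edgeR, adjusted p = 2.2e-05 and 7.6e-06). Those of mt-Tl2 were 3.02 ± 0.49 and 3.36 ± 0.47 (adjusted p = 0.0013 and 3.5e-04), and those of mt-Ts2 were 2.71 ± 0.36 and 3.16 ± 0.34 (adjusted p = 7.6e-05 and 8.3e-06). Without control replicate 1, which had 7 of the 10 control counts, the values of mt-Ts2 were 3.48 and 3.93. Without control replicate 2 they were 2.20 and 2.64. The threonine tRNA gene mt-Tt had 28, 60, 37 and 55 counts in anti-miR-409-5p libraries and 33, 66, 58 and 48 in anti-miR-501-3p libraries, against 14 and 14 in control. Its log2 fold changes were 1.73 ± 0.34 and 1.89 ± 0.34 (adjusted p = 0.0018 and 5.5e-04). Under anti-miR-409-5p neither mt-Ts2 nor mt-Tt was called by DESeq2. With the trend on GC content and length removed, the calls of mt-Ti, mt-Tl2 and mt-Tt were lost in both comparisons. The adjusted p-values (edgeR) were then 0.093 and 0.072 for mt-Ti, 0.19 and 0.084 for mt-Tl2, and 0.22 and 0.068 for mt-Tt.

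The proline and leucine genes with the most tRNA counts behaved differently from each other. The gene mt-Tp, on the light strand, had 45.2, 58.0, 66.3 and 55.1 CPM in anti-miR-409-5p libraries and 43.1, 61.3, 64.4 and 62.2 CPM in anti-miR-501-3p libraries, against 17.0 and 30.5 CPM in control libraries. The controls differed by more than the anti-miR libraries did in relative terms, and its rise of 1.23 ± 0.28 and 1.28 ± 0.28 on the log2 scale (edgeR, adjusted p = 0.017 and 0.012) was not called without control replicate 1. The gene mt-Tl1, which follows the 16S rRNA gene and whose tRNA reads UUA and UUG codons, had 18.0 to 20.2 CPM under anti-miR-409-5p and 18.4 to 20.3 CPM under anti-miR-501-3p, against 14.8 and 14.0 CPM in control. Its log2 fold changes were 0.38 ± 0.07 and 0.42 ± 0.07 (adjusted p = 9.5e-04 and 3.0e-04).

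The methionine tRNA gene mt-Tm and the glutamate tRNA gene mt-Te were not called in either comparison. The gene mt-Tm had 4.07, 3.69, 4.99 and 4.63 CPM in anti-miR-409-5p libraries and 3.09, 3.80, 5.13 and 4.92 CPM in anti-miR-501-3p libraries, against 3.49 and 4.01 CPM in control libraries. The gene mt-Te had 0.897, 1.53, 1.04 and 1.52 CPM in anti-miR-409-5p libraries and 0.973, 1.43, 1.76 and 1.12 CPM in anti-miR-501-3p libraries, against 1.10 and 1.07 CPM in control libraries. Both overlapped control, with log2 fold changes of 0.20 ± 0.18 and 0.17 ± 0.18 for mt-Tm (edgeR, adjusted p = 0.44 and 0.51) and of 0.23 ± 0.26 and 0.27 ± 0.26 for mt-Te (adjusted p = 0.57 and 0.47).

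As a result the mix within the tRNA counts differed between groups. Of these counts mt-Tl1 took 15.6% ± 1.51 under anti-miR-409-5p and 15.4% ± 1.24 under anti-miR-501-3p, against 27.9% ± 6.21 in control. The gene mt-Ta took 12.7% ± 1.39 and 13.0% ± 1.24 under the anti-miRs, against 4.81% ± 0.544 in control. The gene mt-Tp took 45.9% ± 2.14 and 45.5% ± 3.75 under the anti-miRs, against 44.1% ± 9.97 in control, and its groups overlapped.

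A tRNA gene offers few places for a read. A 50-base read that overlaps the gene and no other annotated gene can start at 9 positions for mt-Ts2, 15 for mt-Ti, 23 for mt-Ta and 26 for mt-Tl1. For mt-Tn there are 56 such positions and for mt-Tc 51, with an unannotated gap between these genes, and for mt-Tp, which borders the control region, 67. Reads that overlapped 2 genes, such as those that run from a tRNA into an mRNA, may have been left out of the counts, and the setting is not given in the sources used here.

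**Figure D3:**
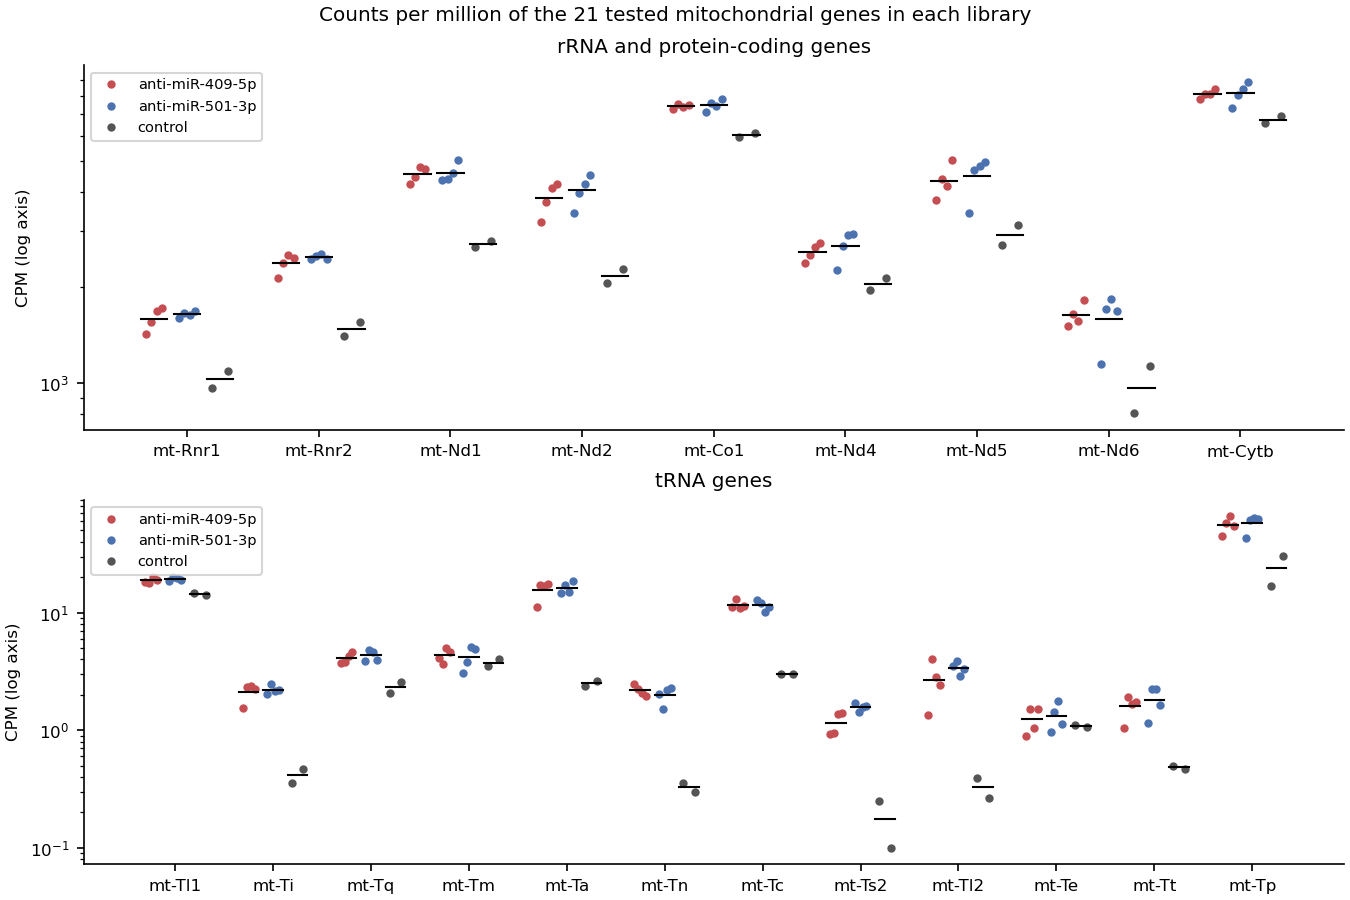
CPM (log axis) in each library of the 9 tested rRNA and protein-coding genes (upper panel) and the 12 tested tRNA genes (lower panel), with a point per library and a line at the group mean. The groups are separate for all genes but mt-Tm and mt-Te, and the gap is widest for mt-Ti, mt-Ta, mt-Tn, mt-Tc, mt-Ts2, mt-Tl2 and mt-Tt.

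**Figure D4:**
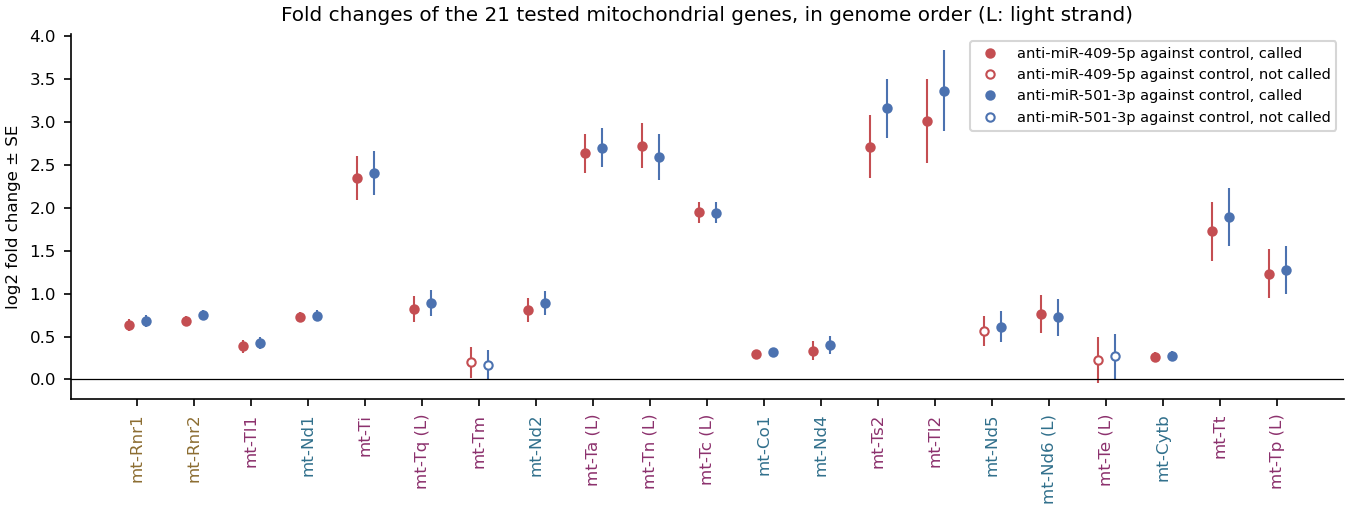
Log2 fold change (bars are SE) against control of the 21 tested genes in genome order, for anti-miR-409-5p (n = 4) and anti-miR-501-3p (n = 4) against the same 2 control libraries, with filled points for genes called at an adjusted p of 0.05. The long genes lie between 0.27 and 0.89 and the called tRNA genes between 0.38 and 3.36.

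Base composition moved with these fold changes. For each library, the deviation of log2 level from the gene's mean over all libraries was regressed on GC content. This used the 12811 genes with a mean log2 CPM above 1. The slope per 10 percentage points was -0.0414 ± 0.0675 in anti-miR-409-5p libraries and -0.0736 ± 0.0577 in anti-miR-501-3p libraries (SD, n = 4 each). In control it was 0.230 ± 0.0464 (n = 2), and neither anti-miR group overlapped control. Deviations are centred over the libraries, so differences between groups can be read and the sign of a slope cannot. Mitochondrial genes are AT-rich: the 21 tested ones had a median GC content of 35.7% (27.5% to 44.9%), against 49.5% for all tested genes. Across the 12 tRNA genes, the Spearman correlation between GC content and log2 fold change was -0.80 under anti-miR-409-5p and -0.83 under anti-miR-501-3p. Across the 9 long genes it was -0.60 and -0.57, and across all 16839 tested genes with a GC value -0.69 and -0.70. These are descriptions across genes, which share the same libraries and are not independent.

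The other genes of low GC content show what the table as a whole did there. Among 104 other tested genes with a GC content from 34% to 36%, the median log2 fold change was 0.64 under anti-miR-409-5p, with 0.13 and 1.70 as the 5th and 95th percentiles. The rRNA genes, mt-Nd2, mt-Nd4 and mt-Nd6, in this range of GC content, had 0.34 to 0.81 in that comparison, and the tRNA genes mt-Tt and mt-Te had 1.73 and 0.23. Among the 1139 other genes at or below 40%, 58.3% were called higher under anti-miR-409-5p and 65.7% under anti-miR-501-3p, beside the 15.6% and 17.6% of all tested genes.

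With the trend on GC content and length removed from each library, 7 of the 21 genes were called under anti-miR-409-5p (6 higher and 1 lower) and 7 under anti-miR-501-3p (6 higher and 1 lower), where 7.46% and 10.1% of all tested genes were called in either direction. The genes called higher were mt-Rnr1, mt-Nd1, mt-Nd2, mt-Ta, mt-Tn and mt-Ts2 under anti-miR-409-5p, and mt-Nd1, mt-Nd2, mt-Ta, mt-Tn, mt-Tc and mt-Ts2 under anti-miR-501-3p. The gene mt-Nd4 turned lower in both, at -0.18 and -0.24 on the log2 scale (edgeR, adjusted p = 0.028 and 0.0049). Class medians were then 0.14 and 0.08 for rRNA genes, 0.12 and -0.02 for protein-coding genes, and 0.85 and 0.98 for tRNA genes.

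The signs of mt-Cytb and mt-Te turned as well in both comparisons, without a call. With a trend on GC content alone, 12 genes were called for anti-miR-409-5p (1 of them lower) and 13 for anti-miR-501-3p (2 of them lower), where 8.03% and 10.2% of all tested genes were called. Those higher were 9 of 12 tRNA genes, 2 of 7 protein-coding genes (mt-Nd1 and mt-Nd2) and 0 of 2 rRNA genes in each comparison, with rRNA medians of 0.07 and 0.03. Of the 12811 genes on which the trend was fitted, 65 had a GC content at or below the median of the tested mitochondrial genes. Only 9 were shorter than 100 bases, so the trend has few genes to rest on at the tRNA genes. Mitochondrial genes with a mean log2 CPM above 1 were not left out of the fit and are among these counts. The trend was thus partly fitted to the values from which it was removed. Among the 9 short genes are mt-Tl1, mt-Tq, mt-Tm, mt-Ta, mt-Tc and mt-Tp, so at that length most genes in the fit were mitochondrial. The part of GC content in the results was not tested.

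**Figure D5:**
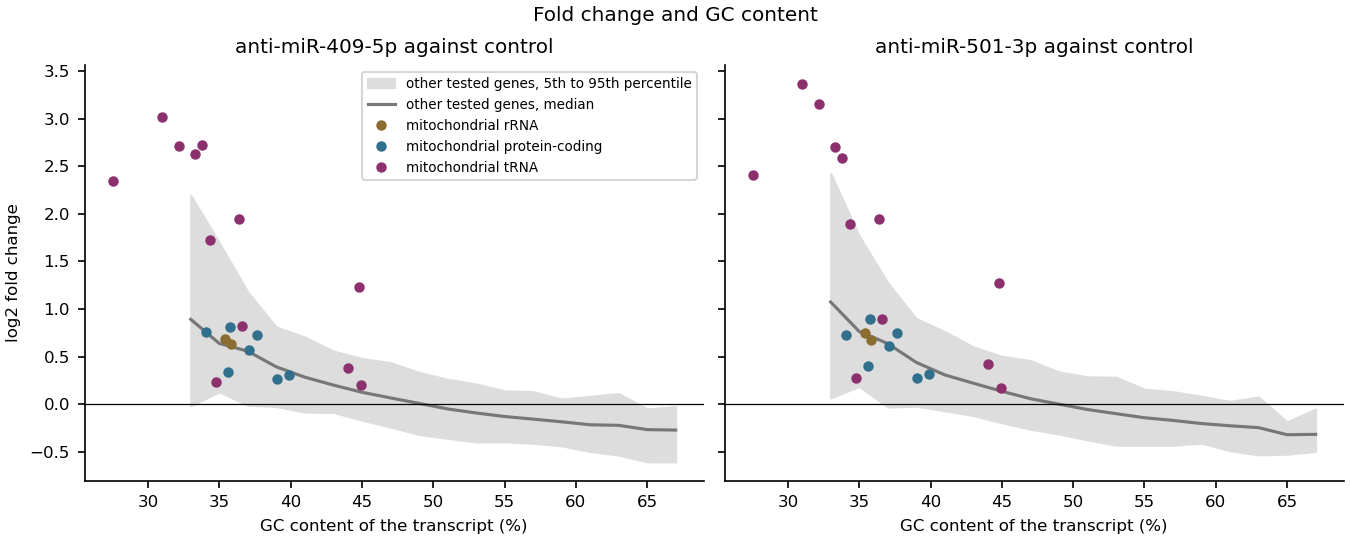
Log2 fold change against control and GC content (%) of the tested mitochondrial genes (points, by class) for each anti-miR, over the median and the 5th to 95th percentiles of all other tested genes in bins of 2 percentage points with at least 20 genes. The rRNA and protein-coding genes lie within the band of genes of like GC content, mt-Ta, mt-Tn, mt-Tc, mt-Ts2, mt-Tt and mt-Tp exceed the 95th percentile of their own bin (mt-Tt narrowly, inside the drawn band, which joins bin centres), and mt-Ti and mt-Tl2 have a lower GC content than its lowest bin.

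No mitochondrial gene was called between the anti-miRs in the fit without a replicate block. In the direct comparison of anti-miR-409-5p with anti-miR-501-3p, 0 of 21 genes were called (edgeR quasi-likelihood test), with 1 at an unadjusted p under 0.05, and DESeq2 called 0 of them. Of all 16884 tested genes 0.0% were called, with 992 at an unadjusted p under 0.05, and DESeq2 called 3. The log2 differences ran between -0.44 for mt-Ts2 (± 0.18) and 0.13 for mt-Tn (± 0.14), and for mt-Nd1 the difference was -0.02 ± 0.05. A missed threshold does not show that the anti-miRs act alike.

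Nuclear genes that serve the mitochondrial genome were counted against all tested genes, of which 15.6% rose and 12.2% fell under anti-miR-409-5p and 17.6% rose and 15.4% fell under anti-miR-501-3p. Of 23 tested genes for mitochondrial DNA transcription, replication and copy number, 4 rose and 2 fell under anti-miR-409-5p and 5 rose and 2 fell under anti-miR-501-3p, with median log2 fold changes of -0.01 and 0.01, which is close to those shares. The mitochondrial RNA polymerase Polrmt, which transcribes both strands, fell to 23.1 ± 1.23 CPM under anti-miR-409-5p and 22.8 ± 1.21 CPM under anti-miR-501-3p, against 28.7 ± 1.06 CPM in control (log2 fold changes -0.31 and -0.33, edgeR, adjusted p = 0.0020 and 8.4e-04). Mterf3, a factor that represses mitochondrial transcription, rose by 0.36 and 0.40 (adjusted p = 8.3e-04 and 2.6e-04). Slc25a36, a carrier of pyrimidine nucleotides, rose by 0.55 and 0.62 (adjusted p = 2.4e-04 and 7.1e-05). Rrm2b, a subunit of ribonucleotide reductase that supplies nucleotides for mitochondrial DNA, rose by 0.51 and 0.60 (adjusted p = 7.4e-04 and 1.4e-04).

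Of 25 tested genes for mitochondrial RNA processing, polyadenylation and decay, 10 rose and 4 fell under anti-miR-409-5p and 11 rose and 5 fell under anti-miR-501-3p, with medians of 0.06 and 0.08, beside the 15.6% and 12.2% and the 17.6% and 15.4% of all tested genes. Mtpap, the poly(A) polymerase of mitochondria, had 26.0 ± 1.38 CPM and 26.6 ± 0.917 CPM under the anti-miRs, against 19.8 ± 3.07 CPM in control, and rose by 0.39 and 0.43 on the log2 scale (edgeR, adjusted p = 0.0014 and 5.5e-04). Its call under anti-miR-409-5p was lost without control replicate 1 (0.26, adjusted p = 0.068). Trnt1, which adds CCA to tRNAs, had log2 fold changes of 0.36 and 0.44 (adjusted p = 1.5e-04 and 1.8e-05), and Lactb2, an endoribonuclease of mitochondria, 0.47 and 0.55 (adjusted p = 7.9e-04 and 1.4e-04). Fastkd2, which binds the 16S rRNA, rose by 0.30 under anti-miR-409-5p (adjusted p = 0.0029), and Pde12, which removes poly(A) tails, by 0.32 under anti-miR-501-3p (adjusted p = 0.0015). Both are given where they were among the 4 genes of smallest p, which does not make them particular to 1 anti-miR. Fastkd2 averaged 19.4 CPM under anti-miR-501-3p, against 16.4 CPM in control. Pde12 averaged 22.1 CPM under anti-miR-409-5p, against 18.9 CPM in control.

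Of 25 tested genes for modification of mitochondrial tRNAs and rRNAs, 2 rose and 3 fell under anti-miR-409-5p and 3 rose and 3 fell under anti-miR-501-3p, with medians of -0.07 and -0.05. These counts are at or below the shares over all tested genes, 15.6% and 17.6% for higher and 12.2% and 15.4% for lower. Nsun3, which methylates the anticodon of the methionine tRNA, rose by 0.41 and 0.58 (edgeR, adjusted p = 0.013 and 9.8e-04). Osgepl1, which modifies tRNAs next to the anticodon, rose by 0.23 and 0.40 (adjusted p = 0.037 and 0.0010), and Mettl15, a methyltransferase for the 12S rRNA, by 0.30 under anti-miR-501-3p (adjusted p = 0.012). Mettl17, which binds the small ribosomal subunit, fell by 0.17 and 0.21 (adjusted p = 0.031 and 0.0075), and Pus1, a pseudouridine synthase, fell by 0.27 under anti-miR-409-5p (adjusted p = 0.025). In the comparison not given for them, Mettl15 averaged 7.26 CPM under anti-miR-409-5p, against 6.70 CPM in control. Pus1 averaged 7.88 CPM under anti-miR-501-3p, against 8.89 CPM in control. Without either control library in turn, the calls of Nsun3, Pus1 and Mettl17 under anti-miR-409-5p were lost. Those of Osgepl1 under anti-miR-409-5p and Mettl15 under anti-miR-501-3p were lost without control replicate 1, and that of Mettl17 under anti-miR-501-3p without control replicate 2. With the trend on GC content and length removed, the calls of Polrmt, Mterf3, Trnt1, Lactb2, Nsun3 and Osgepl1 were lost in both comparisons, those of Rrm2b, Fastkd2, Pus1 and Mettl17 under anti-miR-409-5p and those of Pde12 and Mettl15 under anti-miR-501-3p. The GC content of these transcripts runs from 39.3% in Osgepl1 to 60.5% in Polrmt.

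The authors' deposited tables of each anti-miR against control list 21 and 22 mitochondrial genes. In the authors' deposited table for anti-miR-409-5p, 15 of the 21 have an adjusted p-value and 14 of those are higher at 0.05, with 0 lower. In the authors' deposited table for anti-miR-501-3p, 20 of the 22 have an adjusted p-value and 18 are higher, with 0 lower. The tRNA genes mt-Ti, mt-Tn, mt-Ts2, mt-Tl2, mt-Te and mt-Tt have none in the first of these authors' deposited tables, and mt-Tf and mt-Ts2 have none in the second.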

How the data were processed

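RNA was measured in 10 libraries in 3 groups. The deposited values are raw read counts per Ensembl gene, 1 table per library, with whole numbers and unequal totals. The submitters' processing notes name build mm10, STAR 2.5.2b, Subread 1.5.1 with its featureCounts, and FastQC 0.11.5. The annotation, strand setting and treatment of multiply mapped reads are not given in the sources used here. The authors also deposited a table per anti-miR with log2 fold changes and adjusted p-values, per the file headers, used for a comparison of calls alone.

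Genes were matched to symbols by identifier (48349 of 48709), and coordinates, GC content and sequences came from GENCODE M21 (mm10). The members and nuclear lists were chosen with earlier results of these data known. Counts were filtered with edgeR's filterByExpr (16884 genes), scaled by TMM and tested with edgeR 4.0.16 in R 4.3.3 (quasi-likelihood, robust, two-sided, all 10 libraries, no covariate), with Benjamini-Hochberg adjustment over all tested genes at 0.05. Shares, class sums and ratios were described without a test. The GC trend used splines of 5 degrees of freedom and was fitted where mean log2 CPM exceeded 1, mitochondrial genes included. Alternatives used DESeq2 1.42.0 and sva 3.50.0. The fits were tested on simulated data. The text names every mitochondrial gene, the nuclear copies on chromosome 1 and the other copies that were tested. From each nuclear list it names the 4 genes of smallest p per comparison. Total counts of 22254788 to 32096808 set the precision.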

Additional observations from a re-analysis of the deposited data

Results flagged for a closer look

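In 54 groups of 4 libraries examined, 5 had a library far from the other 3, and chance flags about 1 in 20 such groups. Replicate 1 of anti-miR-409-5p was low for mt-Ti, with 0.68 log2 CPM where the others had 1.19 to 1.28, and for mt-Ta, with 3.49 where the others had 4.07 to 4.13. Replicate 1 of anti-miR-501-3p was low for mt-Nd5, with 11.74 log2 CPM where the others had 12.19 to 12.28, and for mt-Tp, with 5.43 where the others had 5.94 to 6.01. The same library had the lowest share of counts on mitochondrial tRNA genes, 0.0108% where the others had 0.0131% to 0.0132%. Each of these values stayed above both control libraries.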

How the results depend on the processing

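The counts of called mitochondrial genes stayed within 1.5 times the main counts of 18 and 19, all higher, under the other scalings, filters, DESeq2 and a surrogate variable (13 and 16). With GC content alone, an alternative chosen after seeing the data, 11 and 11 mitochondrial genes were higher and 1 and 2 lower, where 1355 and 1714 of all tested genes were called. With the trend on GC content and length removed, 7 and 7 mitochondrial genes were called, where 1259 and 1707 of all tested genes were. With a replicate block in the same fit they were 8 and 9, where 1297 and 1835 of all tested genes were called. Leaving out 1 library gave 13 to 19 genes under anti-miR-409-5p, 14 to 19 under anti-miR-501-3p and 0 between the anti-miRs, with the lowest counts without control replicate 1. Called and higher under all alternatives that tested them were 3 genes under anti-miR-409-5p (mt-Nd1, mt-Ta and mt-Tn) and 6 under anti-miR-501-3p (mt-Nd1, mt-Nd2, mt-Ta, mt-Tn, mt-Tc and mt-Ts2). Asking for 50 counts in every library left mt-Tn and mt-Ts2 untested. Both passed the filter of the main fit because of their counts under the anti-miRs, so their calls carry that selection.

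The replicate numbers were not shown to pair the libraries: the correlations of same-numbered anti-miR libraries were 0.17, 0.089, 0.064 and 0.15, though each correlated best with its own number. With the replicate block, 19 genes were called in each comparison with control and 1 between the anti-miRs (mt-Nd2, -0.084 ± 0.017, edgeR, adjusted p = 0.0078), where 252 of all tested genes were called. With the block mt-Nd5 was called under anti-miR-409-5p (0.45, adjusted p = 0.029), and mt-Tm turned to -0.019 and -0.057.

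Further signs turned with GC corrections, without a call unless named. For anti-miR-409-5p, in the order GC and length, the same with a replicate block, and GC alone, the log2 fold changes were -0.18, -0.21 and -0.25 for mt-Nd4 (called in the first and last), -0.72, -0.66 and -0.42 for mt-Te, -0.038, -0.050 and -0.11 for mt-Cytb and -0.13, -0.088 and -0.13 for Osgepl1. For anti-miR-501-3p they were -0.24, -0.26 and -0.29 for mt-Nd4 (called in the first and last), -0.63, -0.58 and -0.48 for mt-Te, -0.10, -0.11 and -0.16 for mt-Cytb (called in the last) and -0.050, -0.061 and -0.090 for mt-Nd6. With GC and length, and with the block added, mt-Tl1 was -0.047 and -0.018 under anti-miR-409-5p, and mt-Tm -0.22 and -0.38 under anti-miR-409-5p and -0.11 and -0.27 under anti-miR-501-3p. With GC and length and with GC alone, under anti-miR-501-3p, mt-Co1 was -0.016 and -0.064, Osgepl1 -0.016 and -0.019 and the copy Gm13340 -0.0010 and -0.049. With GC alone, mt-Co1 was -0.030 under anti-miR-409-5p, and with a surrogate variable mt-Tm was -0.046. The cause was not tested.

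The difference in rRNA share under anti-miR-501-3p was 0.162 percentage points over non-mitochondrial counts, and 0.140 to 0.166 without single libraries. The log2 difference in the tRNA to mRNA ratio ranged from 0.62 to 0.89 and from 0.65 to 0.92, and that of light to heavy strand under anti-miR-409-5p from 0.15 to 0.54. Depth limits mt-Ts2, mt-Tl2, mt-Tn, mt-Ti and mt-Tt, with 3 to 14 counts in each control library.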
